A study of Mus musculus with 8 samples.

Results

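The Pax genes encode transcription factors that share a DNA-binding paired domain, and the mouse genome has 9 of them, Pax1 to Pax9. To determine where the acetylation of lysine 56 of histone H3 (H3K56ac) lay at this family in muscle stem cells (MuSCs), the peaks of a merged H3K56ac list were collected over each gene and 50 kb on either side. These 9 windows, out of those of 21938 protein-coding genes, held 86 of the 105600 peaks. Pax7 and Pax3, the members of the muscle lineage, were compared with the 7 members known from other tissues.

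The study profiled freshly isolated MuSCs of C57BL/6 mice by chromatin immunoprecipitation and sequencing (ChIP-seq), with 8 libraries: for each genotype, Control and Sirt6mKO, 2 with the H3K56ac antibody and 2 of input chromatin without it. Controls were labelled wild type (elsewhere in the study, controls of this cross were Cre-negative Sirt6 fl/fl mice), and Sirt6mKO mice carried floxed Sirt6 alleles that were deleted by a constitutively active Cre driven by the Pax7 promoter, so that the promoter of a gene described here also drives the Cre. The mice were adult males, and the number of mice per library was not given in the sources used here. The list is a merged set of positions, and the libraries that entered it are not named. It holds far more peaks than the paper reported for wild-type MuSCs. In the paper, peak numbers also differed widely between the listed MuSC samples. The shares of protein-coding genes given below are those of the merged list and not of wild-type MuSCs. The list gives no value per genotype or replicate, no peak height and no depth. The comparison of Sirt6mKO with Control could therefore not be made at these genes. The paper reported a global increase of H3K56ac peaks in Sirt6mKO MuSCs. It also described the peaks after loss of Sirt6 as much broader than the sharp ones of several other histone marks. Peaks present in Sirt6mKO alone cannot be told apart here from those of both genotypes. Nor can it be told which genotype set the width of a peak or the share of a gene covered. A peak in bulk chromatin also does not tell whether many or few cells carried the mark. The values below therefore have no replicate error and are descriptions, read against all protein-coding genes.

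The 9 factors fall into 4 groups by structure. Pax3 and Pax7 mark muscle progenitors, Pax7 is the defining factor of the adult MuSC, and Pax3 also acts in the neural crest and in the migrating progenitors of limb muscle. Pax2, Pax5 and Pax8 act in kidney and midbrain, in B cells, and in thyroid and kidney. Pax4 and Pax6 act in pancreatic islets, with Pax6 also a main regulator of eye development. Pax1 and Pax9 act in the sclerotome, the precursor of the vertebrae, and in the pharyngeal pouches. H3K56ac lies on the lateral surface of the nucleosome, is removed by SIRT6, and is found at promoters and enhancers of active genes.

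The label of the sorted cells was checked against marker genes. All 10 of 10 MuSC marker genes, a list that includes Pax7 itself, had their gene start inside a peak, against 56.8% of all protein-coding genes. The same held for 0 of 5 immune markers (Ptprc, Cd68, Lyz2, Itgam and Csf1r), 1 of 5 Schwann cell markers, 2 of 5 endothelial markers, 2 of 5 myofibre markers and 3 of 5 fibro-adipogenic markers. A peak within 3 kb of a start site separated the lists less. It was present at 10 of 10 MuSC, 5 of 5 myofibre, 4 of 5 fibro-adipogenic, 3 of 5 endothelial, 3 of 5 Schwann cell and 2 of 5 immune markers. Over all protein-coding genes this share was 67.8%. The endothelial receptor gene Tek had a promoter peak of 12975 bp. The paper reported that the sorted cells were not fully pure, and the part of other cell types in the Pax peaks was not tested.

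The sequences at the starts of 4 members are shown because they differ in CpG content and in whether a peak lies there. Each line gives the 250 bases before a start site, read 5′ to 3′ on the strand of the gene, with CpG dinucleotides in capitals. The sequences come from the RefSeq promoter table of GRCm38, which held 7 of the 9 genes and neither Pax3 nor Pax4.
Pax2, chr19:44755502-44755751, plus strand: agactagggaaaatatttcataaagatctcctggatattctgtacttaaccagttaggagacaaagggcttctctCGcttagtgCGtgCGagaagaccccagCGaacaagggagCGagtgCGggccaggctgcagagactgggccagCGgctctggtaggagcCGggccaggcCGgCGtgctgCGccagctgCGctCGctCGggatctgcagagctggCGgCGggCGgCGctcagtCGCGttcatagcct
Pax6, chr2:105668646-105668895, plus strand: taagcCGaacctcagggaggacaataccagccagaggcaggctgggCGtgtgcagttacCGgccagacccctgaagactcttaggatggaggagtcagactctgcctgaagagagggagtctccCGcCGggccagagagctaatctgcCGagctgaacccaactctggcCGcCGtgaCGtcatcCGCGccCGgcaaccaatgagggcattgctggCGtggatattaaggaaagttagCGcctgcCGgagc
Pax5, chr4:44710695-44710944, minus strand: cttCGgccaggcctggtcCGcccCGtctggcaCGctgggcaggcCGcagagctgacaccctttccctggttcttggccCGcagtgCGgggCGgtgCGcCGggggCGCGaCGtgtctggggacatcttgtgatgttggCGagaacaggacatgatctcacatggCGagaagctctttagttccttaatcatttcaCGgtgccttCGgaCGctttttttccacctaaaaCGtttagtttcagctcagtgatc
Pax8, chr2:24475600-24475849, minus strand: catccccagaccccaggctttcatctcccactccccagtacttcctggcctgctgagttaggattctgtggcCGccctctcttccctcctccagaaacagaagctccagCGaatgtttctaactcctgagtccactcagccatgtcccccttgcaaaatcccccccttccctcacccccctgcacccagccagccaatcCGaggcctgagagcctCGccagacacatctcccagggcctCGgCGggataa

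The stretches of Pax2 and Pax6 held 20 and 15 CpG dinucleotides in 250 bases, and 93.2% and 100% of their bases lay inside a peak. Among the other Pax2 starts of the table, not printed, a stretch with 25 and one with 5 had 0% inside a peak. That of Pax5 held 19, and 0% of it lay inside a peak. That of Pax8 held 6, with 0% inside a peak.

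Pax7 had by far the most sequence inside H3K56ac peaks of the family. Of the 211.4 kb covered by peaks in the 9 windows, which span 1503 kb in all, 140.0 kb or 66.24% belonged to Pax7. Its window held 26 peaks, that of Pax3 held 20, and the other 7 windows held 40 together, with 12 at Pax5, 11 at Pax2, 9 at Pax6, 6 at Pax4, 1 each at Pax1 and Pax9 and 0 at Pax8. Over all protein-coding genes the median window held 7 peaks, with quartiles of 2 and 14. The number of peaks alone hides the difference between Pax7 and Pax3, because many Pax7 peaks were nearly touching. Joining peaks less than 1 kb apart left 7 regions at Pax7, below the 12 at Pax3, the 9 at Pax2 and the 8 at Pax5.

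**Figure D1:**
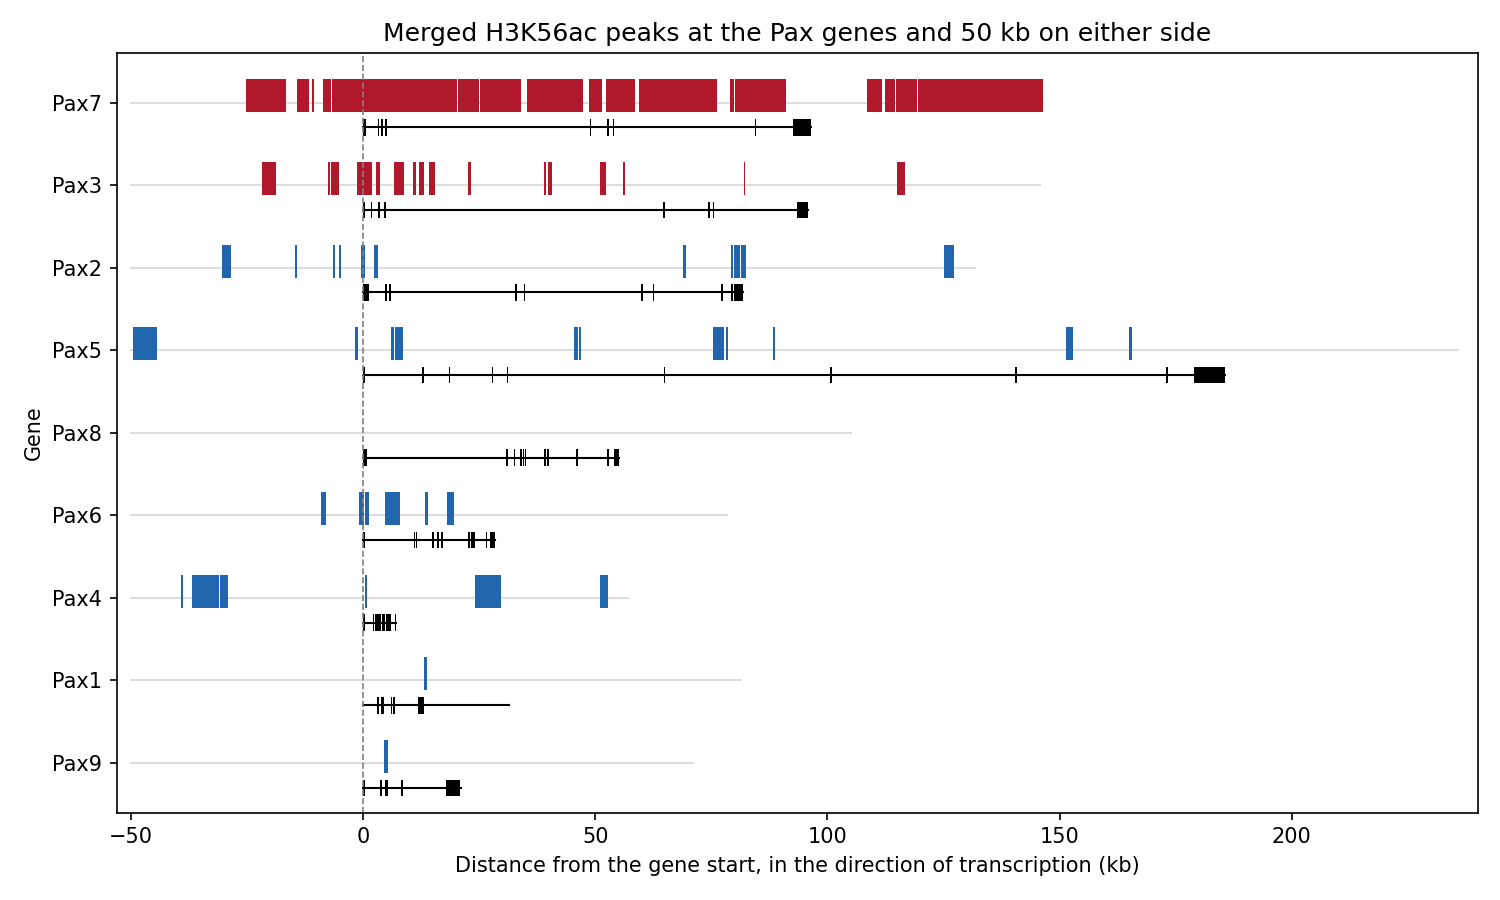
Merged H3K56ac peaks (coloured blocks) at the 9 Pax genes, drawn against distance from the gene start in kb in the direction of transcription, with 50 kb shown on either side of each gene; black lines are gene bodies and black boxes the exons of 1 transcript, and blocks under 0.35 kb are drawn at that width. Peaks fill most of the Pax7 window, are spread over that of Pax3, and are absent from that of Pax8.

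Pax7 (ENSMUSG00000028736.13) lies on the minus strand at chr4:139737062-139833528 of mm10 and is 96.47 kb long. Peaks covered 86.67% of its body, 39.5% of the 50 kb upstream and 73.24% of the 50 kb downstream. The median protein-coding gene had 7.823% of its body covered. A higher share was found in 675 of the 21938 genes, in which short genes that a single peak can fill are included. Among the 1256 genes within 20% of the length of Pax7 the median was 7.156%, and Pax7 stood at the 99.68th percentile. Of the 5007 protein-coding genes of at least 50 kb, 9, Pax7 among them, reached its share. At least 50% of the body was covered in 9.90% of protein-coding genes and, within the family, in 1 of 9.

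The peak over the Pax7 start was 21301 bp wide (chr4:139818983-139840283) and reached from position -6755 to 14545 relative to the start. It contained both annotated start sites and exons 1 to 4, the exons that encode the start of the protein and its paired domain. Of the 14872 protein-coding genes with a promoter peak, meaning one within 3 kb of an annotated start site, 61 had a wider one. A promoter peak of 10 kb or more was present in 2.59% of protein-coding genes and in 1 of the 9 members.

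The remaining Pax7 peaks continued through the gene. In the Pax7 transcript of 9 exons, exons 1 to 8 were each covered completely, and the introns together were covered to 90.05%. Intron 4, of 43.89 kb, held 8 peaks that covered 93.45% of it, and intron 7, of 30.4 kb, held 6 peaks that covered 87.83%. Divided into 10 equal segments from the 5′ end, the gene was covered to 100%, 99.06% and 97.86% in segments 1 to 3, to between 80.48% and 91.79% in segments 4 to 9, and to 43.99% in segment 10. Coverage was therefore high throughout and lowest at the 3′ end.

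The last exon stood apart from the rest of the gene. Exon 9, of 3841 bp, is the longest of the transcript and ends in the 3′ untranslated region, and it overlapped 0 peaks. It lay in a stretch without peaks of 17521 bp (chr4:139724895-139742415), of which 5354 bp were inside the gene and 12167 bp past its end. Repeat-masked sequence made up 28.0% of that stretch, against 22.5% of the whole window, 19.3% of the bases inside its peaks and 30.5% of those outside them. Because reads with more than one alignment were discarded by the authors, masked sequence is less likely to carry a peak, and its part in this stretch was not tested.

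Peaks resumed beyond the stretch. The 6 downstream peaks included 1 of 20551 bp (chr4:139683290-139703840), nearly as wide as the one over the start, and 1 of 6430 bp. The nearest protein-coding gene on that side, the taste receptor gene Tas1r2, lies 66.78 kb from Pax7 and had 10.3% of its body covered. All 26 peaks stayed farther than 3 kb from the start sites of other annotated genes and overlapped none of those genes. On the upstream side 5 peaks lay between positions -25186 and -6968, the widest of 6999 bp, and the next peak after them was 107.7 kb away.

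Seen as one series, 20 peaks separated by less than 5 kb spanned 116.3 kb around the Pax7 start (chr4:139742416-139858714), and 88.87% of this span was covered. Allowing gaps up to 20 kb extended the series to 42 peaks over 285.1 kb and took in the starts of Aldh4a1, Gm21969, Iffo2 and Tas1r2. With the window of gene and 50 kb flanks as the measure, 71.25% of the Pax7 window was covered, and 9 protein-coding genes had a higher share. These 9, named after their values were seen, were Tnp1, Zfp366, 1700034J05Rik, Ski, Hoxc8, Ror1, Nfia, Cuedc1 and St3gal5. The genes closest to Pax7 in length, promoter peak width and body coverage were Fam53b, Cuedc1, Ksr1, Ski and Foxo1, the last a transcription factor that acts in muscle atrophy and stem cell quiescence. Fam53b, the nearest of 14872 genes compared, had a promoter peak of 22943 bp and 90.3% of its body covered.

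**Figure D2:**
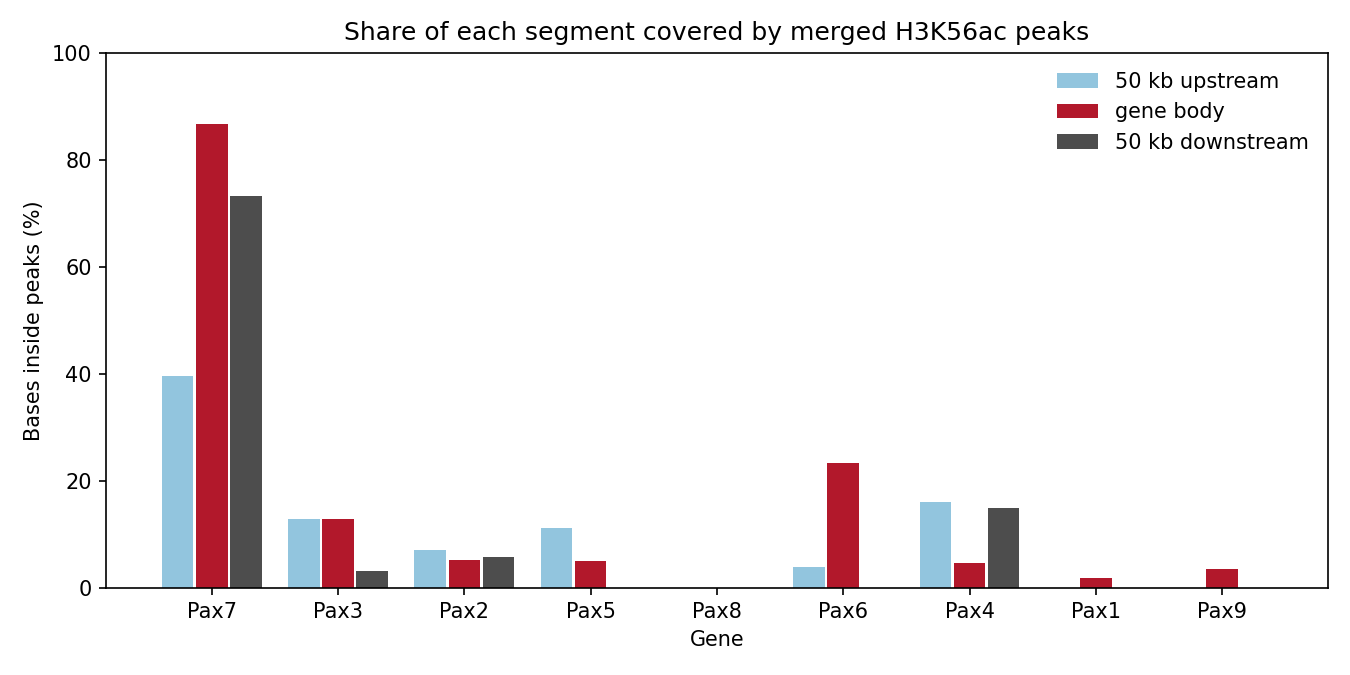
Percentage of bases inside merged H3K56ac peaks for each Pax gene, in the 50 kb upstream, the gene body and the 50 kb downstream. Pax7 is the highest in each segment, with 39.5%, 86.67% and 73.24%, and Pax8 is at 0 in all of them.

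Pax3, the nearest relative of Pax7, had a similar gene length and far less of it covered. Its 20 window peaks were at the 89.02nd percentile of protein-coding genes. It lies on the minus strand at chr1:78101267-78197134 (ENSMUSG00000004872.15) and is 95.87 kb long. Peaks covered 12.82% of its body, which is the 67.91st percentile of the 1262 genes within 20% of its length. They covered 12.88% of the upstream and 3.11% of the downstream flank. Pax7 and Pax3 thus held a similar number of peaks in the gene body, 15 and 14, while the median peak in the window was 3172.5 bp wide at Pax7 and 719 bp at Pax3. At Pax7 8 peaks were 5 kb or wider, and at Pax3 the widest was 3282 bp.

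That widest peak lay over the start (chr1:78195097-78198378) and contained all 3 annotated start sites with exons 1 and 2. Its width was at the 46.87th percentile of the 14872 promoter-marked coding genes, whose median was 3430 bp. Exons 1 to 3 of the 8 in its transcript were covered completely and the other 5 exons overlapped 0 peaks. Most body peaks lay in intron 4, of 60.01 kb, where 11 peaks covered 14.93%. In 10 equal segments from the 5′ end, coverage was 54.7%, 32.06% and 6.874% in segments 1 to 3 and at most 18.09% in segments 4 to 10.

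Upstream of Pax3, 3 peaks of 370, 1392 and 438 bp lay close together between positions -7438 and -5210, and 1 of 2997 bp lay between -21714 and -18718 (chr1:78215852-78218848). The latter had an observed over expected CpG ratio of 0.752 and a GC content of 61.4%, against 0.564 and 52.8% in the peak over the start. The nearest upstream protein-coding gene, Sgpp2, was 113.2 kb away, and all 20 peaks stayed farther than 3 kb from start sites of other genes. The genes most like Pax3 by the same measures were Dcaf5, Kcnk13, Shoc2, Fam13a and Wasf3. Dcaf5 had a promoter peak of 3268 bp and 12.6% of its body covered.

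**Figure D3:**
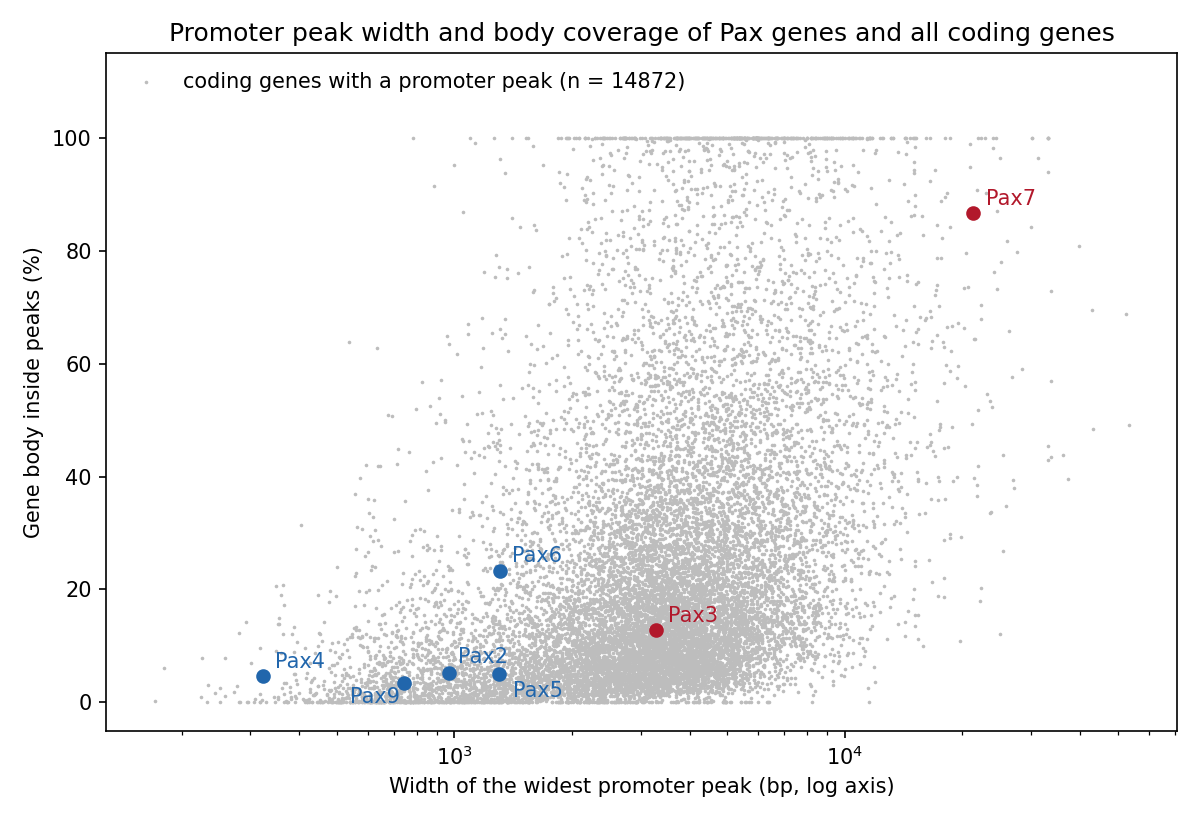
Width of the widest promoter peak in bp (log axis) against the percentage of the gene body inside peaks, for 14872 protein-coding genes with a promoter peak (grey points) and the 7 Pax genes that have one. Pax7 sits at the upper right edge, Pax3 in the middle of the genes, and the other 5 to the left, with promoter peaks of 1306 bp or less.

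Pax2, Pax5 and Pax8, which share an octapeptide and a partial homeodomain, differed among themselves. Pax2 (chr19:44756045-44837871, plus strand) had 5.213% of its body covered. A peak of 970 bp lay over its start (chr19:44755519-44756488), and 1 of its 3 start sites was inside a peak. A separate group of 3 peaks, of 553, 1205 and 1095 bp, lay at its 3′ end, and exon 10, the last, was covered to 88.43%. Pax2 and Pax7 were thus opposite at the last exon. An antisense transcript, 1700039E22Rik, starts 109 bp from a peak of that group, so these peaks cannot be assigned to Pax2 alone.

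Pax5 (chr4:44524757-44710487, minus strand) is the longest member at 185.7 kb, and 4.959% of its body was covered. Its gene start lay 1103 bp from the nearest peak, an upstream one of 527 bp. The 3 peaks closest inside the gene, of 700, 1298 and 497 bp, lay between positions 5970 and 8702 at an internal start site, near the start of the transcript 5730488B01Rik. Inside introns 5 to 8 lay 7 further peaks, the widest of 2471 bp in intron 6. All 10 exons of the transcript examined were free of peaks. The widest peak of the window, of 5034 bp, lay at the start of the neighbour Zcchc7.

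Pax8 (chr2:24420560-24475599, minus strand) was the only member with 0 peaks in its window, which 17.7% of protein-coding genes share. Its start lay 311.7 kb from the nearest peak, farther than in all but 1756 of 21938 protein-coding genes. The stretch without peaks around it was 737.0 kb long (chr2:24050279-24787319), and 440 of 105579 gaps between neighbouring peaks were longer. It took in or touched 10 protein-coding genes, including Psd4, Cacna1b, which encodes a neuronal calcium channel, and Il1rn with other genes of the interleukin-1 family. The stretch held 0 unknown bases and 31.6% masked sequence, and the Pax8 window itself had 18.9% masked, the lowest of the 9.

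Pax6 and Pax4, the islet members, also differed from each other. Pax6 (chr2:105668900-105697364, plus strand) had 23.34% of its body covered, the second highest share of the family and the 74.61st percentile of protein-coding genes. Of its 24 annotated start sites 15 were inside a peak. All of its peaks were narrow, between 661 and 1306 bp. One of 1149 bp lay over the gene start (chr2:105668040-105669188), a group of 839, 972 and 1306 bp lay between positions 4748 and 7968 at internal start sites, and the 5 peaks that reached intron 1 covered 39.28% of it. A peak of 1052 bp upstream lay near the start of Paupar, a long noncoding RNA transcribed away from Pax6. An antisense transcript, Pax6os1, starts 18 bp from a peak near the gene start, so the peaks there cannot be assigned to Pax6 alone.

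Pax4 (chr6:28442334-28449353, minus strand) is the shortest member at 7.02 kb, and a single peak of 323 bp lay in its intron 1, 490 bp from the gene start. The other 5 peaks of its window were outside it, and 4 of them lay within 3 kb of starts of Zfp800, of Gcc1, Arf5 and Fscn3, or of Snd1. Its window coverage of 14.77% fell to 0.6868% without these 4, so most of that coverage, the second highest of the family, lay at starts of neighbouring genes. The same step left the windows of Pax7 and Pax3 as they were, at 71.25% and 10.36%. It lowered that of Pax5 from 5.17% to 2.059%, that of Pax6 from 6.661% to 4.193% and that of Pax2 from 5.864% to 4.029%.

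Pax1 and Pax9 had 1 peak each. At Pax1 (chr2:147361925-147393295, plus strand) it was 539 bp wide, lay 13.2 kb inside the gene and was 6813 bp from the nearest start site, so that Pax1 had no promoter peak. At Pax9 (chr12:56691767-56712822, plus strand) it was 743 bp wide (chr12:56696359-56697101), overlapped exon 3 and lay 630 bp from an internal start site and 4592 bp from the gene start. The Pax9 start lay near one end of a stretch without peaks of 348.6 kb that also took in Nkx2-1 and Nkx2-9, and the Pax1 start in one of 188.7 kb that reached Nkx2-2.

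Counted over the family, 7 of the 9 genes had a promoter peak, against 67.8% of protein-coding genes, a share near the background. The width of that peak set the members apart more than its presence. Apart from Pax7 with 21301 bp and Pax3 with 3282 bp, it was 1306 bp at Pax6, 1298 bp at Pax5, 970 bp at Pax2, 743 bp at Pax9 and 323 bp at Pax4. These 5 were between the 0.1815th and the 11.03rd percentile of the same 14872 genes, below the lower quartile of 2241.75 bp. Joining peaks less than 1 kb apart raised the width to 42517 bp at Pax7, 4946 bp at Pax3, 3221 bp at Pax6 and 2733 bp at Pax5, and left the other 3 as they were. Pax3 then stood at the 58.32nd and Pax7 at the 99.23rd percentile of joined widths. Their order by width has no replicate error, and Pax6 and Pax5, 8 bp apart, are not distinguished.

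The gene start itself was inside a peak at Pax2, Pax3, Pax6 and Pax7, or 4 of 9, against 56.8% of protein-coding genes. Starts rich in CpG dinucleotides carry peaks far more often than others, so the members were read against their class. A start was called CpG-rich with an observed over expected CpG ratio of at least 0.6 and a GC content of at least 50% within 500 bp on either side. By this measure 90.7% of the 9740 CpG-rich starts and 29.8% of the others were inside a peak. Pax1, Pax2, Pax3, Pax7 and Pax9 were CpG-rich, with ratios of 0.654, 0.701, 0.669, 0.628 and 0.63, and 3 of these 5 were inside a peak. The exceptions, Pax1 and Pax9, had ratios slightly above that of Pax7. Of the other 4 only Pax6, with a ratio of 0.57, was inside a peak. Pax5 missed the class only by its GC content of 47.1%, with a ratio of 0.663, while Pax4 at 0.0517 and Pax8 at 0.222 were poor in CpG.

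**Figure D4:**
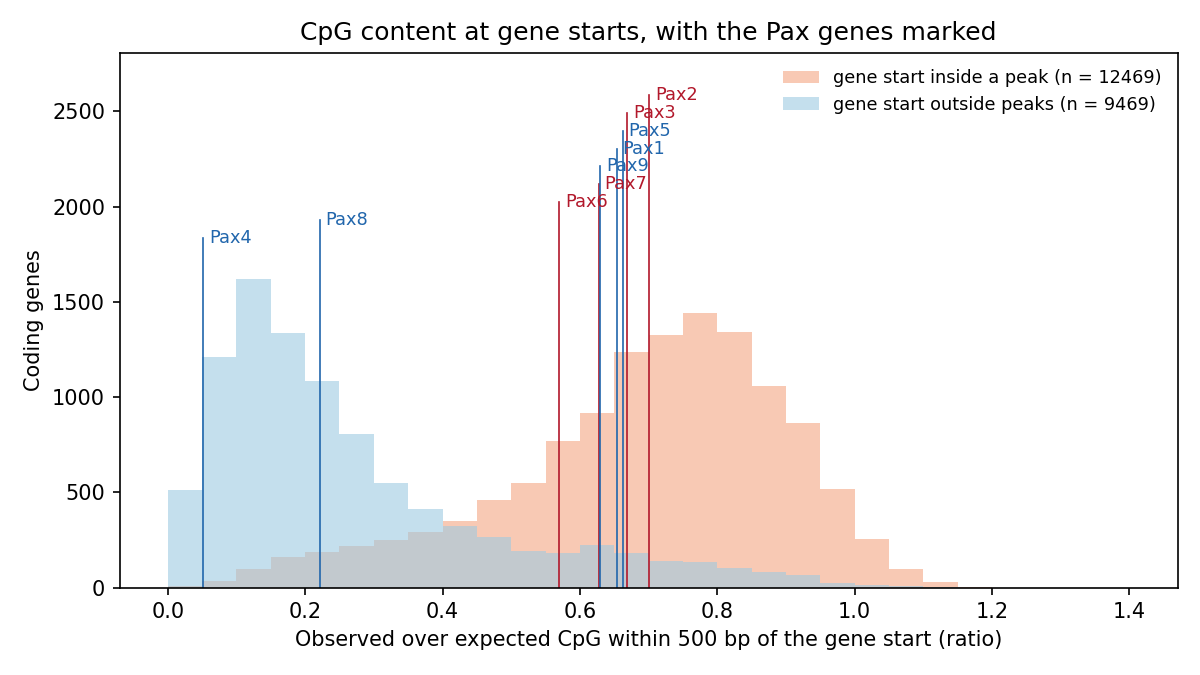
Observed over expected CpG ratio within 500 bp of the gene start for protein-coding genes whose start lies inside a peak (12469 genes) or outside (9469 genes), with the Pax genes marked by vertical lines, red inside and blue outside a peak. Pax1, Pax5 and Pax9 lie outside peaks at ratios between 0.63 and 0.663, where most genes are inside one.

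The sequence under the peaks differed in CpG content. Pax7 peaks held 15.8 CpG dinucleotides per kb, near the 16.5 of all peaks. The single Pax1 peak held 11.1, and the peaks in the windows of Pax4, Pax3, Pax5, Pax2, Pax6 and Pax9 held 26.6, 31.1, 32.0, 42.1, 45.8 and 72.7. The CpG ratio was 0.42 in the peak over the Pax7 start and between 0.113 and 0.263 in the other 25, so the Pax7 peaks outside the start lay in CpG-poor sequence. E-boxes (CANNTG), the 6-letter sites bound by MYF5, MYOD1 and other basic helix-loop-helix factors, occurred 6.25 times per kb of Pax7 peaks, 3.65 times per kb of Pax3 peaks and 5.6 times per kb of all peaks.

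Pax3 and Pax7 have a paired-type homeodomain, a class that can bind 2 TAAT half-sites facing each other. Only the form with 3 bases between them was searched, written TAATNNNATTA, which reads alike on both strands. Other spacings were not searched, so the counts below do not cover all forms of the site. In all peaks, cut into 560826 tiles of 300 bases, 0.623% of the tiles held it. Of the 468 tiles at Pax7, 0 did. It was in 1 of 57 tiles at Pax3, or 1.75%, and in 1 of 44 at Pax5, or 2.27%, and in no tile of the other windows. Counted over whole peaks, it occurred 2 times at Pax3 and 1 time at Pax5. The Pax3 occurrences were in separate peaks of intron 4, 12.2 and 7.94 kb from the start. They are shown with 20 bases on either side and the match in capitals.
Pax3 intron 4, chr1:78184890-78184940, plus strand: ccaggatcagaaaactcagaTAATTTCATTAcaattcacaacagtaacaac
Pax3 intron 4, chr1:78189168-78189218, plus strand: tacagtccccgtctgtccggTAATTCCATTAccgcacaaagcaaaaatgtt

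These matches describe letters and not bound sites. In the RefSeq promoter table, 300 bases from 250 before to 50 after a start, 10 promoters of the family were found among 32851. A GC box (GGGCGG, either strand) was in 35.7% of all promoters and in those of Pax1, Pax5, Pax7, Pax8 and of 2 of the 3 Pax2 starts. A TATA box (TATAAA, either strand) was in 13.6% of all promoters and in 0 of the 10.

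Genes that work with each factor in its own tissue were compared with the factor itself. Of 11 muscle targets and partners of Pax3 and Pax7, 10 had a promoter peak, the same 10 had their gene start inside a peak, and the median width of the widest promoter peak over the 11 was 6145 bp. Over all protein-coding genes these shares were 67.8% and 56.8%. With genes without a promoter peak counted at 0, a width of 6145 bp was at the 90.07th percentile of protein-coding genes. Myf5, the myogenic factor that PAX7 activates, had one of 30239 bp, Lbx1, which guides migrating muscle progenitors, one of 13121 bp, and Fgfr4 one of 6145 bp. Myod1, which drives commitment to differentiation, had one of 2720 bp with 96.42% of its short body covered. Carm1, the methyltransferase that modifies PAX7, had 6239 bp and the adaptor gene Paxbp1 4525 bp. Met, the receptor of hepatocyte growth factor, had 4033 bp with 50.31% of its 110181 bp body covered. Meox2, a homeobox gene of limb muscle, was the exception with 0 peaks in its window.

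Promoter peaks in the corresponding lists of the other members were narrower at the median, but nearly as frequent in some. They were present in 6 of 7 genes of the kidney, the sclerotome and the eye list, 5 of 7 of the thyroid and the islet list and 3 of 6 of the B cell list. The median width, with genes without one counted at 0, was 1792 bp for 7 kidney and midbrain-hindbrain genes of Pax2, 1520 bp for 7 sclerotome and skeletal genes of Pax1 and Pax9, 1272 bp for 7 thyroid genes of Pax8, 799 bp for 7 eye and forebrain genes of Pax6, 602 bp for 7 islet genes of Pax4 and 480.5 bp for 6 B cell genes of Pax5. Starts inside a peak numbered 4 of 7, 5 of 7, 2 of 7, 2 of 7, 1 of 7 and 1 of 6 in that order, of which 4 of 7 is near and 5 of 7 above the 56.8% of all protein-coding genes. Counted in the same way over all protein-coding genes, a width of 1792 bp was at the 44.2nd percentile, so the median widths of these lists lay below the middle of all genes. Single genes departed from their list. Blnk, a B cell adaptor, had a promoter peak of 12841 bp, Scx, a tendon factor, one of 6992 bp, and Six2 one of 5952 bp. Nkx2-1, a thyroid and lung factor, Wt1, a kidney factor, and Meox2 had windows without peaks, as Pax8 did.

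**Figure D5:**
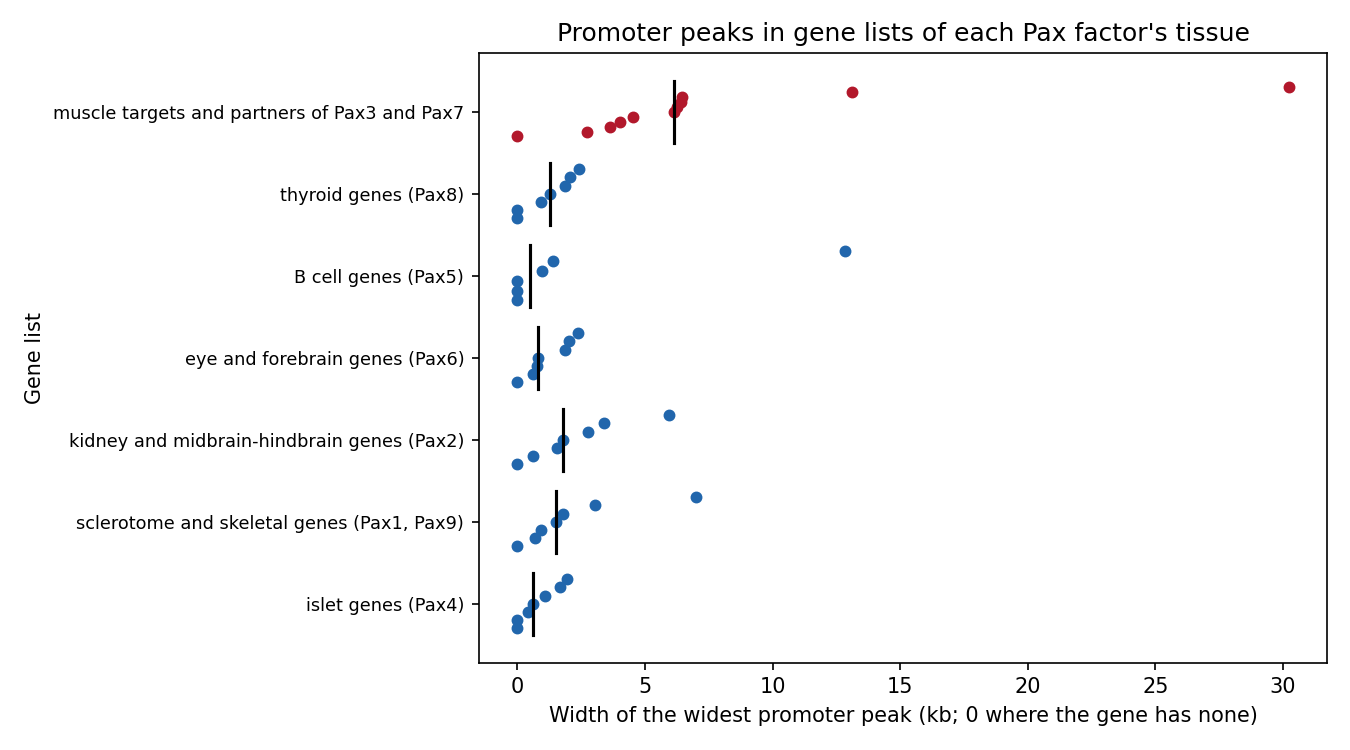
Width of the widest promoter peak in kb of each gene (points; 0 where it has none) in 7 lists of genes that act with Pax factors, with the list median as a black line. The muscle list has its median at 6145 bp and its widest peak at 30239 bp (Myf5), and the medians of the other 6 lists lie between 480.5 and 1792 bp.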

How the data were processed

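Freshly isolated MuSCs were sorted by flow cytometry and profiled by H3K56ac ChIP-seq. The authors trimmed reads with Trim Galore, aligned them to mm10 with Bowtie keeping single alignments, removed duplicates with Picard, called peaks with MACS2, removed blacklisted regions and merged overlapping peaks. The deposited list holds chromosome, start and end, and its score column is 0 in all rows. It had 0 columns of values per sample, the libraries that entered the merge are not named, and merging widens and fuses peaks. The paper gives read numbers per library, but the list holds no counts per peak. The precision of a peak edge therefore cannot be given, and the planned test of Sirt6mKO against Control was not run.

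Here peaks were placed on GENCODE vM21 genes of GRCm38, the same build as mm10, counting from 1, with an overlap of at least 1 bp. A promoter was within 3 kb of any start site of the gene, and a window was the gene with 50 kb on either side. Percentiles are the percentage of protein-coding genes with a lower value. Named genes were the 9 members, the genes of the lists, genes in the windows of Pax3 and Pax7 and, for each of these 2, the 5 nearest genes by log2 length, log2 promoter peak width and body coverage, each divided by its SD. An item of the muscle list and a sequence are not reported here. Other genes were named as neighbours or after their values were seen. The members and lists were chosen with earlier results of these data known, and no test was made. Alternatives were promoters of 1 kb or the start site itself, protein-coding transcripts, intervals of at least 500 bp, flanks of 0, 20 and 100 kb, joined peaks and peaks away from other genes' starts. The interval functions (Python 3.11.15, numpy 2.4.6, pandas 2.3.3) were tested on simulated data, with 0 mismatches in 500 queries.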

Additional observations from a re-analysis of the deposited data

How the results depend on the processing

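The number of Pax genes with a promoter peak was 7 with promoters of 3 kb, 7 with 1 kb or with protein-coding transcripts only, 6 with intervals of at least 500 bp, where Pax4 was lost, and 5 with the start site itself. The shares of protein-coding genes under these settings were 67.8%, 65.4%, 66.7%, 67.1% and 62.1% in that order. The 86 peaks at the family became 74 and 110 with flanks of 20 and 100 kb, 69 without peaks near starts of other genes, 56 in the gene bodies alone and 48 after joining peaks less than 1 kb apart. Pax7 held the most peaks and Pax3 the next most under each of these settings but joining, where Pax3 held 12, Pax2 9, Pax5 8 and Pax7 7. The genotypes, replicates and depth cannot be compared in a merged list, and the alternatives planned for that comparison (DESeq2 size factors, a filter on low counts, leaving out replicates) were not run. No paired analysis was possible because the list has no values per sample.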
